A study of Homo sapiens with 8 samples.

Results

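AT-AC introns are the small group of introns that open with AT and close with AC instead of the usual GT and AG. They were taken here as every splice junction that the aligner had coded as AT-AC, on either strand, and had marked as annotated in at least 1 of the 8 deposited junction tables. The rule found 241 such introns among 654181 junctions, and these 241 carried 211048 uniquely mapped reads over all libraries. HEK293, an established human embryonic kidney line, had been treated with 25 nM LMI070 (branaplam, an oral small molecule that changes pre-mRNA splicing) in 4 libraries, replicates 13 to 16, and with DMSO, the solvent control, in 4 libraries, replicates 9 to 12. All 8 came from total RNA depleted of ribosomal RNA and made into stranded libraries, and each group was split evenly over lanes 7 and 8. The series concerns splicing that is switched by this drug, so the question here is whether it changed the use of these introns.

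Most introns are removed by the major spliceosome, whose U1 and U2 particles read the donor and the branch point. A rare class is removed by the minor spliceosome, in which the U11/U12 di-snRNP reads a nearly invariant donor and a strongly conserved branch motif, and U4atac/U6atac replaces U4/U6. AT-AC introns were the first minor introns to be recognised, although many minor introns have GT-AG ends and are therefore not in this set. The host genes tend to serve basic cell functions, among them splicing itself, nuclear transport, cell cycle control and ion channels.

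The label held for most of the 241 introns but not for all, the well-read ones included. On the strand of their gene, 217 introns in 189 genes were AT-AC, and these had 204568 reads, or 96.9% of the total. Another 22, with 5957 reads (2.82%), lay opposite to the strand of their GENCODE gene, where the same ends read as GT-AT; ALG6, GLB1L2, DGCR2, SHISA5, ADAT2 and OCRL were the most read of these. The other 2 matched no GENCODE intron, and 1 of them, on chromosome 11, had 514 reads. In all, 61 introns had fewer than 20 reads, 4 of which had no uniquely mapped read. Of the 146 with at least 100 reads, 137 were AT-AC on the gene strand, 8 were GT-AT and 1 matched no GENCODE intron. A further 555 junctions with AT-AC ends lacked the annotation mark; they held 975 reads with a median of 1 read, and the most-read had 65.

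Letters at the intron ends could be read where an exon of another transcript covers them. The following introns are shown because they are among the most read. The first 10 bases have the donor motif ATATCC in capitals; the last 30 bases have the branch motif (CCTTAAC or CCTTGAC) and the closing AC in capitals. Coordinates are GRCh38 and the bases run 5′ to 3′ on the gene strand.
SRSF10 donor, chr1:23975078-23978712, minus: ATATCCtttc
SRSF10 acceptor: aaacttcccaagccCCTTAACatttagcAC
DDB1 donor, chr11:61300933-61302256, minus: ATATCCttcc
DDB1 acceptor: aagcacgtgttCCTTAACtcacccatccAC
GARS donor, chr7:30621501-30622316, plus: ATATCCtttc
GARS acceptor: gtagttttggattCCTTGACtacttcatAC
PHB2 acceptor, chr12:6967249-6967675, minus: tgcccttgcgtgtaCCTTAACcctcctcAC
ARPC5 acceptor, chr1:183633155-183635516, minus: ctttgctgttacacCCTTAACttccatcAC
HSBP1 acceptor, chr16:83808747-83809304, plus: gttggcacgcgttgtctttaacttcagcAC
The HSBP1 stretch has no exact copy of either branch motif.

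Among gene-strand AT-AC introns with at least 100 reads, 43 of the 45 whose first bases could be read opened with ATATCC. The count was 6 of 9 for introns with at least 20 and under 100 reads and 7 of 27 for those under 20. The branch motif stood in the last 30 bases of 23 of 33 introns with at least 100 reads, 3 of 9 with at least 20 and under 100, and 3 of 23 under 20. For comparison, 0.505% of the 47727 annotated GT-AG introns with readable ends held the branch motif there, and 0.524% of 50942 opened with GTATCC. Only these letters on the gene strand were searched, and the transcripts that cover an intron end are a selected part of all introns.

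Little-read members often lacked both motifs. The introns of HDLBP (vigilin, 71 reads) and SAT1 (29 reads) are shown as examples of this, and those of SLC8B1 (106 reads) and CACNA2D2 (34 reads) because they are GT-AT on the gene strand with a donor that goes on as in minor introns.
HDLBP donor, chr2:241230177-241233852, minus: ATccagtttc
HDLBP acceptor: ccagagaatgtggaggaagccatcgaccAC
SAT1 donor, chrX:23783679-23784337, plus: ATggaagaac
SAT1 acceptor: cttcgccatgtacatggcccttccgtgtAC
SLC8B1 donor, chr12:113320687-113320849, minus: GTatcctttt
SLC8B1 acceptor: tcctggcccgCCTTGACatgctccccacAT
CACNA2D2 donor, chr3:50364977-50365074, minus: GTatcctgcc
CACNA2D2 acceptor: cgccgtccgcctCCTTGACtccccacccAT
Capitals here mark the end dinucleotides and the branch motif.

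Each library had between 20369466 and 36131054 uniquely mapped junction reads, and 201 to 214 of the 241 introns were read in each. The 8 genes listed for HEK293 traits summed to 1254 to 1286 RPM (reads per 1000000 annotated junction reads) in LMI070 libraries and 1213 to 1292 in DMSO libraries. Most of this sum was VIM, at 709 to 747 RPM over all libraries, with KRT8 and KRT18 next. PAX2 was low, at 0.457 to 0.977 RPM, as was LHX1, at 2.13 to 3.17, so the sum says little about them. The blood, keratinising and hepatocyte lists each reached at most 0.470 RPM in any library. Of the 4 fibroblast genes COL1A1 was read (4485 reads in all), with the list at 20.5 to 30.5 RPM in LMI070 and 17.9 to 22.2 in DMSO libraries. The labels do not say which libraries are separate cultures, and each p measures only the spread between these libraries, which may be technical. In bulk RNA, fewer cells of a type and less RNA per cell cannot be told apart. The tables count reads that cross junctions, so an intron left in the RNA is not seen.

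LMI070 did not shift the total use of AT-AC introns beyond the spread of the libraries. The 241 introns took 0.105%, 0.107%, 0.106% and 0.107% of annotated junction reads in LMI070 replicates 13 to 16 and 0.106%, 0.106%, 0.108% and 0.108% in DMSO replicates 9 to 12. The means were 0.1063% ± 0.00071 for LMI070 and 0.1069% ± 0.0013 for DMSO (SD, n = 4 each), and the groups overlapped. Lane 7 gave a difference of -0.00192 percentage points and lane 8 one of 0.000803, LMI070 minus DMSO, so the sign differed between lanes. A comparison with the introns directly before and after in the main transcript covered 120 gene-strand AT-AC introns. These had at least 100 reads and an intron outside the set read on each side. Summed over them, there were 99.0 ± 0.134 reads per 100 flanking reads in LMI070 and 98.5 ± 0.762 in DMSO libraries (SD, n = 4 each). The most-read introns weigh most in this sum. Annotated GC-AG introns, another class with unusual ends, took 0.724% ± 0.00393 in LMI070 and 0.725% ± 0.00359 in DMSO libraries.

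A few introns carried much of the class: the 12 most-used held 39.7% of all member reads. Levels below are in RPM, and a junction has no length, so they can be compared between introns. The most used was intron 4 of HNRNPL, a splicing regulator that binds CA-rich RNA. It stood at 77.9, 73.8, 76.1 and 76.3 RPM in LMI070 replicates 13 to 16 and at 72.9, 69.8, 75.8 and 78.1 in DMSO replicates 9 to 12. Intron 6 of PHB2, the prohibitin of the inner mitochondrial membrane, followed with 49.9 ± 1.83 RPM in LMI070 and 49.9 ± 2.83 in DMSO libraries (SD, n = 4 each). Intron 2 of HSBP1, a small protein that binds heat shock factor, had 47.9 ± 4.86 in LMI070 and 50.2 ± 0.951 in DMSO libraries, and PHB2 and HSBP1 did not differ beyond their spread. All 12 had overlapping groups.

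Next came intron 25 of DDB1, the adaptor of CUL4 ubiquitin ligases, at 44.7 ± 1.15 RPM in LMI070 and 43.8 ± 3.07 in DMSO libraries. Intron 6 of SMS, spermine synthase, had 36.9 ± 1.47 in LMI070 and 37.7 ± 1.63 in DMSO libraries. The importin IPO5 (31.3 ± 1.42 in LMI070, 31.6 ± 3.26 in DMSO) and MCMBP, which binds the MCM helicase (30.9 ± 0.524 in LMI070, 31.0 ± 1.43 in DMSO), lay side by side within their spread. SRSF10, an SR-type splicing factor, had 28.1, 29.5, 26.0 and 27.1 RPM across its intron 2 in LMI070 replicates 13 to 16 and 27.4, 27.5, 25.7 and 26.0 in DMSO replicates 9 to 12. WDR1, which helps to take actin filaments apart, had 22.2 ± 0.867 in LMI070 and 22.3 ± 1.47 in DMSO libraries. ARPC5, a subunit of the actin-branching Arp complex, the glycyl-tRNA synthetase gene GARS and SPC24, a kinetochore subunit, all lay between 18.2 and 19.6 on average in both groups and could not be put in order.

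**Figure D1:**
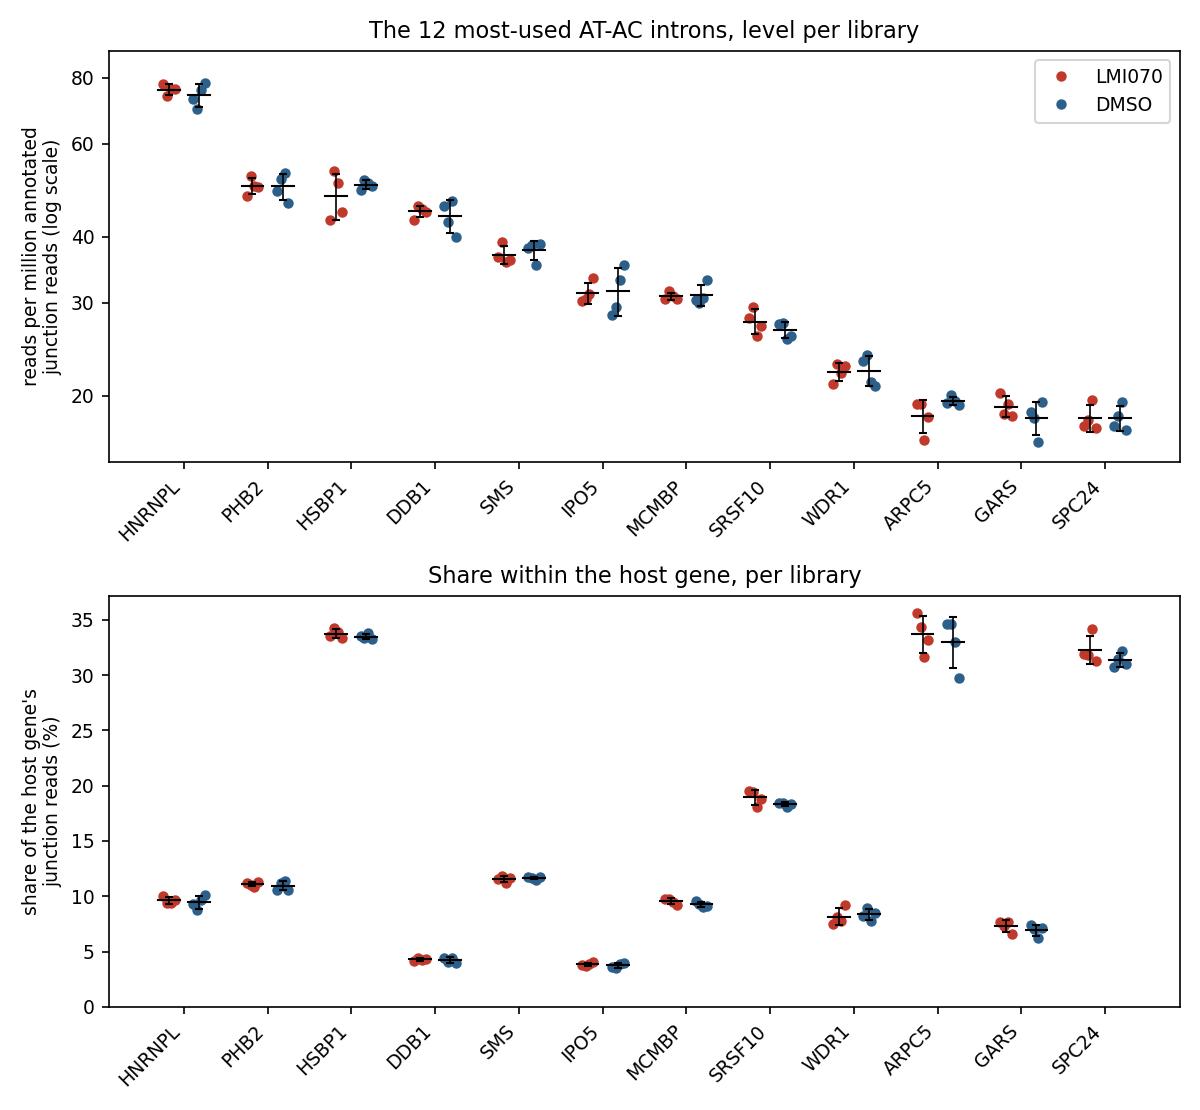
Upper panel, RPM of annotated junction reads (log scale) of the 12 most-used AT-AC introns; lower panel, the share of each intron in its host gene's junction reads in percent. Points are libraries, bars are mean and SD of 4 libraries; HNRNPL leads at 76.0 in LMI070 and 74.1 in DMSO libraries, and LMI070 and DMSO points overlap for every intron in both panels.

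The share of an intron within its host gene removes changes of the gene as a whole. HSBP1 gave 33.8% ± 0.420 in LMI070 and 33.5% ± 0.244 in DMSO libraries, close to an even split among its 3 introns. SRSF10 intron 2 made up 19.0% ± 0.686 in LMI070 and 18.3% ± 0.169 in DMSO libraries, and HNRNPL intron 4 made up 9.63% ± 0.322 in LMI070 and 9.45% ± 0.588 in DMSO libraries (SD, n = 4 each). DDB1, with 26 introns in its main transcript, gave 4.30% ± 0.104 in LMI070 and 4.23% ± 0.250 in DMSO libraries.

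Of the 241 introns 178 had enough reads to test, which were at least 20 over all libraries and at least 10 across the other introns of the gene in each. None was called higher or lower in LMI070 at an adjusted p under 0.05 in the quasi-likelihood test of edgeR, and none by DESeq2. Over all 156094 annotated junctions tested the same rule called 0.0352%, with 0.0263% higher and 0.00897% lower. At an unadjusted p under 0.05, 11 of the 178 passed in edgeR, 5 higher and 6 lower, which is 6.18% against 5.4% of all junctions tested, and 0 passed in DESeq2. Even with no change, some of 178 unadjusted p-values should fall under 0.05. The DESeq2 fit was therefore conservative for these introns, and its lack of calls adds little to that of edgeR. The median log2 change was -0.01 for the AT-AC introns and -0.00 for all junctions, and the smallest adjusted p was 0.839. Depth set what could be seen: the median standard error was 0.0866 log2 units for the 58 introns with at least 1000 reads, whose changes lay between -0.23 and 0.17, 0.151 for the 87 with at least 100 and under 1000 reads, and 0.427 for the 33 with fewer.

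**Figure D2:**
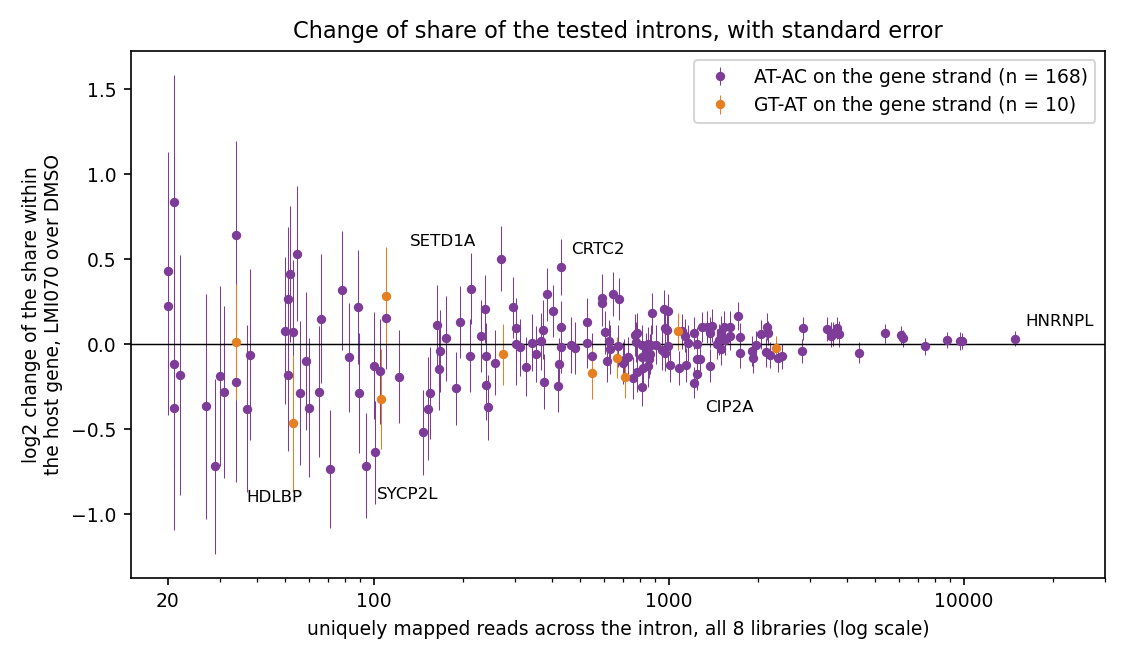
Log2 change of the share within the host gene, LMI070 over DMSO, against uniquely mapped reads across the intron (log scale) for the 178 tested introns, with standard errors. Changes narrow toward 0 as reads rise and lie between -0.23 and 0.17 for the 58 introns with at least 1000 reads; none was called.

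The smallest p-values in each direction are given as values that did not pass. CRTC2, a coactivator of CREB, had shares of 9.82%, 13.9%, 8.52% and 8.60% in LMI070 replicates 13 to 16 and 6.65%, 8.09%, 8.42% and 7.42% in DMSO replicates 9 to 12. These groups did not overlap, and the log2 difference was 0.46 (SE 0.166, edgeR adjusted p = 0.839). The histone methyltransferase gene SETD1A averaged 5.03% ± 1.34 in LMI070 and 3.55% ± 0.506 in DMSO libraries, ZDHHC9, a palmitoyltransferase gene, 9.84% ± 0.985 in LMI070 and 8.12% ± 0.476 in DMSO libraries, and C1orf112 3.49% ± 0.439 in LMI070 and 2.90% ± 0.163 in DMSO libraries. On the other side, intron 10 of CIP2A had shares of 3.53%, 3.14%, 3.53% and 3.62% in LMI070 and 3.66%, 3.91%, 4.13% and 4.28% in DMSO replicates 9 to 12, without overlap; its log2 difference was -0.23 (SE 0.0923, edgeR adjusted p = 0.887). AP2A1, an AP-2 adaptor subunit, averaged 3.31% ± 0.358 in LMI070 and 3.97% ± 0.204 in DMSO libraries, SYCP2L 1.26% ± 0.484 in LMI070 and 1.97% ± 0.281 in DMSO libraries, and HDLBP 0.0215% ± 0.00608 in LMI070 and 0.0340% ± 0.0182 in DMSO libraries.

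Several host genes share a gene family with other host genes; these groups were put together from the symbols of the host genes after the introns were known, and family members outside the host genes were not examined. E2F1 to E2F6, transcription factors of the cell cycle, each had one, with 464 reads for E2F2 to 1930 for E2F1, and their log2 changes of share lay between -0.13 and 0.10. The share of the E2F1 intron was 19.0% ± 0.801 in LMI070 and 19.8% ± 2.49 in DMSO libraries. The formins DIAPH1, DIAPH2 and DIAPH3 held 7 introns, 6 with at least 387 reads and 1 in DIAPH1 with 16, and the 6 tested changed by -0.04 to 0.29. Nuclear transport receptors held 7: IPO5, IPO9 and IPO11, with changes of -0.18 to 0.03, and XPO4, XPO5, XPO7 and RANBP17, with changes of -0.06 to 0.22. Voltage-gated sodium channel genes held 13 introns in 7 genes but only 643 reads in all, the most in SCN9A with 238 across 1 intron, and 6 could be tested. In each of these families 0 introns were called.

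Smaller families were read as well. The CREB coactivators CRTC1, CRTC2 and CRTC3 held 3 introns with 344 to 429 reads and changes of 0.01 to 0.46, and 5 palmitoyltransferase genes of the ZDHHC family held 5 with 175 to 968 reads and changes of -0.13 to 0.29. The signal peptidase subunits SPCS2 and SPCS3 had introns with 2338 and 1914 reads and changes of -0.08 and -0.04, in that order. Sodium/proton exchanger genes of the SLC9A family held 4 introns with 34 to 592 reads, and calcium channel genes held 5 that are AT-AC on their strand, with only 4 to 55 reads, 3 of them tested. None of these introns was called either. Of the introns that are GT-AT on the gene strand, that of the galactosidase-like gene GLB1L2 was read most, at 11.6 ± 0.460 RPM in LMI070 and 11.7 ± 0.711 in DMSO libraries (SD, n = 4 each), and its share was 8.66% ± 0.255 in LMI070 and 8.80% ± 0.505 in DMSO libraries.

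Within their main transcripts, AT-AC introns had slightly fewer reads than the median of the other introns. For the 122 with at least 100 reads and at least 5 other introns read, the ratio to the median of the other introns had a median of 0.935 (quartiles 0.799 and 1.10). The 1768 other introns of the same transcripts had a median of 1.01 (quartiles 0.841 and 1.16). A ratio under 0.8 was found for 25.4% of AT-AC introns and 19.9% of the others. Set against the mean of the introns directly before and after, the median for AT-AC introns was 0.965 and 18.0% lay under 0.8. That ratio was not computed for the other introns, so it cannot show whether AT-AC introns lie lower than their neighbours. These introns share genes and libraries, so the values are given as a description with no test. Of the 137 gene-strand introns with at least 100 reads, 8 were first, 16 second and 9 last in the main transcript, and 6 of their 131 genes held at least 2.

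**Figure D3:**
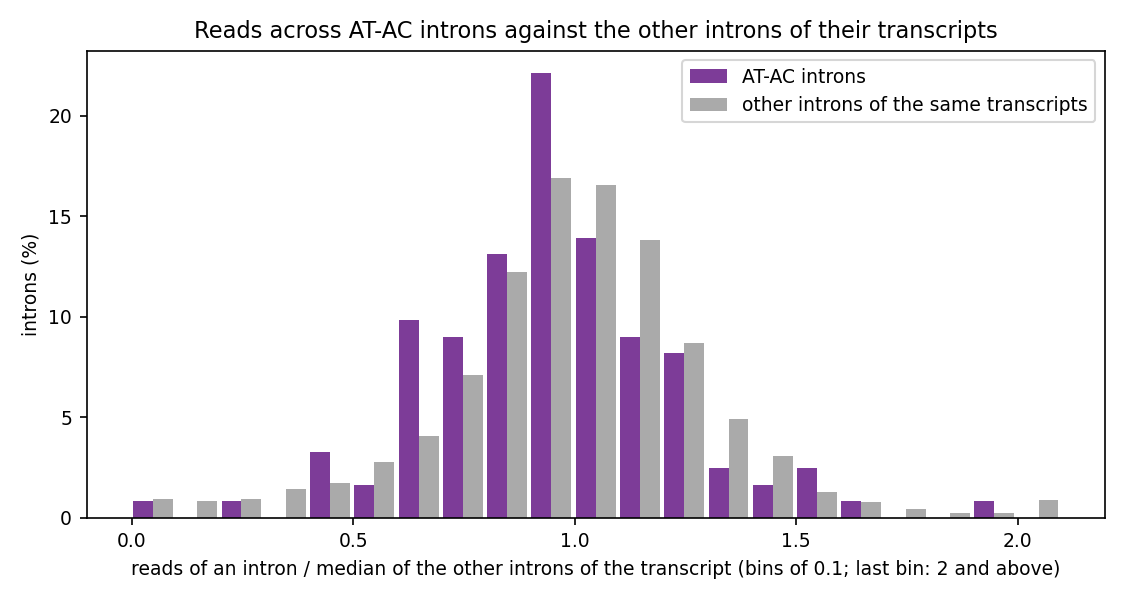
Share of introns in percent by the ratio of their reads to the median of the other introns of the transcript, in bins of 0.1, for 122 AT-AC introns and 1768 other introns of the same transcripts. Both peak near 1, and the AT-AC introns lie slightly lower, with a median of 0.935 against 1.01.

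The lowest ratio belonged to a rarely used isoform. Intron 2 of a transcript of PRMT1, the main arginine methyltransferase, had 190 reads and a ratio of 0.0178, while 6255 reads crossed junctions that span it, the largest with 4922. Those 4922 reads made up 96.4% ± 0.650 in LMI070 and 96.0% ± 1.33 in DMSO libraries of the sum of both (SD, n = 4 each). The shorter of a pair of CRYZL1 introns followed at 0.203. OCRL, an inositol phosphatase gene whose intron is GT-AT on its strand, had a ratio of 0.355, TGS1, which makes the trimethylguanosine cap of snRNAs, 0.431, IFT80, a ciliary transport gene, 0.432, and HIP1, a clathrin adaptor gene, 0.461. The share of the TGS1 intron was 3.39% ± 0.662 in LMI070 and 3.89% ± 0.488 in DMSO libraries. The highest ratios were 1.91 for VEZT, 1.74 for GLB1L2, 1.63 for TMEM231 and 1.54 for KIAA1328, whose intron is 73635 nt long. The share of the VEZT intron was 11.5% ± 0.363 in LMI070 and 10.9% ± 0.677 in DMSO libraries.

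Competing junctions at the same splice sites were rare in the tables. Of the 137 introns with at least 100 reads, 18 (13.1%) had any, and 0 had one outside the annotation. For 1818 GT-AG introns of the same genes at that depth, 1562 (85.9%) had a competitor and 82.5% an unannotated one. The comparison is bounded by the aligner: a junction from an AT donor to an acceptor other than AC counts as non-canonical, only 137 non-canonical junctions without the mark stand in the tables of the series, and filters on them are not given in the sources used here. The part of that rule in the difference was not tested. Junctions that share no site but have both ends within 100 nt of the intron's were found for 35 AT-AC introns (25.5%) and 36 of the GT-AG introns (1.98%). Junctions that span the whole intron and share no site with it went the same way: 62.0% of the AT-AC introns and 32.2% of the GT-AG introns had one, and they took over 5% of reads at 5.84% of the AT-AC introns and 1.43% of the GT-AG introns. A junction that skips an exon next to a GT-AG intron can share its site and then counts as a competitor, so the shares of spanning junctions are not measured on equal terms. The same limit holds for nearby junctions. A GT-AG junction cannot share an AT or AC end, but beside a GT-AG intron it can share a site and is then left out. The 25.5% and 1.98% therefore show no difference in the use of nearby sites. In TM2D1 such nearby GT-AG junctions had 167 reads against 949 across the AT-AC intron. The main one of these, with 114 reads, made up 10.5% ± 2.78 in LMI070 and 10.9% ± 4.84 in DMSO libraries.

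Some AT-AC introns had a choice between acceptors that lie a few bases apart. NR2C2AP has a pair 6 nt apart behind 1 donor, and both are shown because they end in AC after the same branch motif.
NR2C2AP donor, chr19:19202042-19202330, minus: ATATCCtgcc
NR2C2AP longer intron, acceptor: caccagtttcCCTTGACtgcccacgctcAC
NR2C2AP shorter intron, acceptor, chr19:19202048-19202330: agaaatcaccagtttcCCTTGACtgcccAC
The longer intron had 873 reads and the shorter 105. The shorter took 10%, 6.99%, 15% and 8.33% of both in LMI070 replicates 13 to 16 and 9.40%, 6.78%, 18% and 12.4% in DMSO replicates 9 to 12. The groups overlapped throughout, with a log2 difference of -0.27 (SE 0.388, edgeR adjusted p = 0.990).

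AT donors were also joined to annotated acceptors that do not end in AC. In THOC2, a subunit of the THO complex that couples transcription to mRNA export, an acceptor 6 nt further on that ends in AA had 227 reads beside 1245 for the AT-AC intron. It took 15.8% ± 2.03 in LMI070 and 14.7% ± 3.02 in DMSO libraries. In GMFB an acceptor 3 nt nearer, also ending in AA, had 251 reads beside 1978 and took 10.3% ± 2.09 in LMI070 and 12.3% ± 2.74 in DMSO libraries. In CCDC43 an acceptor ending in AG had 150 reads beside 2045 and took 6.01% ± 1.38 in LMI070 and 7.89% ± 1.84 in DMSO libraries. HNRNPLL, the paralog of HNRNPL, used an acceptor ending in AT for 1382 reads, and its AT-AC intron had 21; TCTN1 likewise had 410 reads to an acceptor ending in AT and 82 across its AT-AC intron. The HNRNPLL acceptor took 98.4% ± 1.32 in LMI070 and 98.6% ± 1.11 in DMSO libraries.

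CRYZL1, a quinone oxidoreductase-like gene, was the one intron pair with an unadjusted p under 0.05 in the use test. The acceptor behind the long intron (chr21:33591208-33595730) had 594 reads and the one behind the short intron (chr21:33595615-33595730) 147. The short one took 16.3%, 13.4%, 15.3% and 17.1% of all reads at its sites in LMI070 replicates 13 to 16 and 31.9%, 21.6%, 26.3% and 14.3% in DMSO replicates 9 to 12. DMSO replicate 12 lay among the LMI070 libraries, so the groups overlapped. The log2 differences were -0.72 for the short intron (SE 0.359) and 0.79 for the long one (SE 0.339), with an edgeR adjusted p of 0.977 for both. DGCR2 and the pseudogene PLEKHM1P1, GT-AT on their strand, shared a site with GT-AG introns; the DGCR2 intron kept 78.1% ± 4.49 of reads in LMI070 and 77.0% ± 1.63 in DMSO libraries, and the PLEKHM1P1 intron 39.9% ± 10.1 in LMI070 and 31.6% ± 10.2 in DMSO libraries.

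Across the class, 26 introns had a competitor and enough reads for the use test, and edgeR called none in either direction, with 2 at an unadjusted p under 0.05 (both of CRYZL1) and 0 by DESeq2 on either criterion. Over all 129581 junctions tested the rule called 0.143%, with 0.0887% higher and 0.054% lower, and 3.1% had an unadjusted p under 0.05. With so few introns tested, the choice of site at the other AT-AC introns was not tested.

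**Figure D4:**
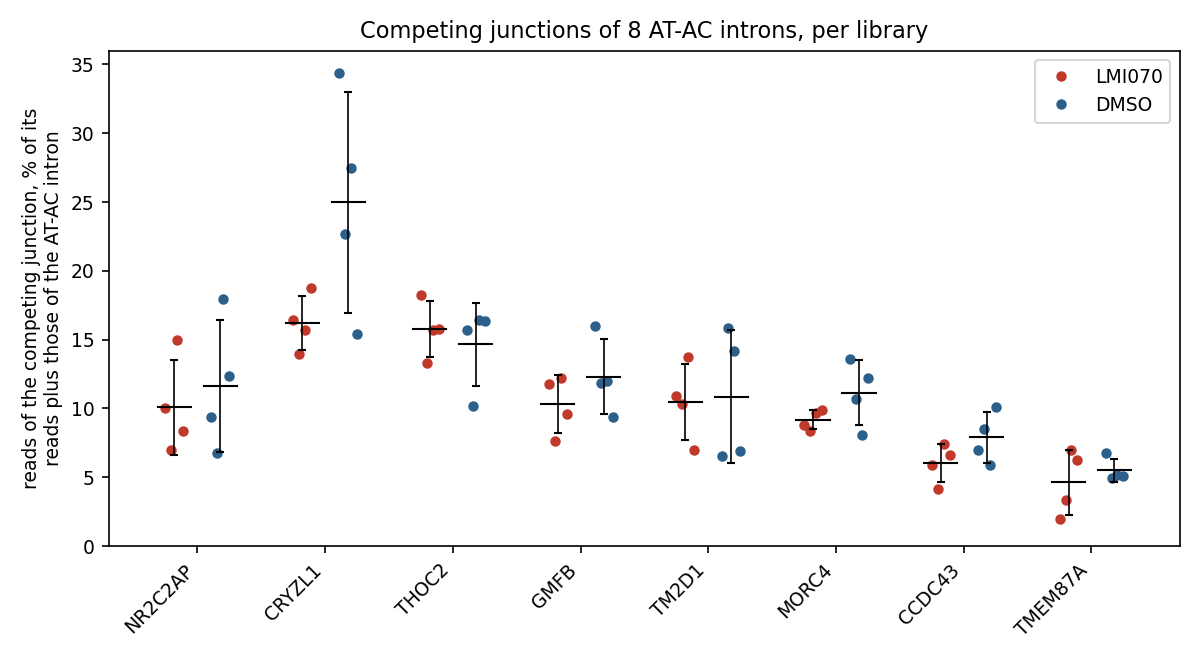
Reads of 1 competing junction in percent of its reads plus those of the AT-AC intron, for 8 introns; points are libraries, bars are mean and SD of 4 libraries. LMI070 and DMSO points overlap for all 8; for CRYZL1 the means are 16.2 in LMI070 and 25.0 in DMSO libraries, with DMSO replicate 12 among the LMI070 values.

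Spliced reads of the host genes, in CPM (per 1000000 spliced reads of all genes, TMM-scaled), were compared to see whether genes with AT-AC introns changed as a whole. Of 211 host genes 201 were tested; edgeR called 3 lower and 0 higher, and over all 13787 genes 0.131% were called, 0.109% lower and 0.0218% higher. At an unadjusted p under 0.05, 18 host genes were higher and 14 lower, 15.9% against 10.2% of all genes. DESeq2 also called 3 host genes, among 36 called over all genes. The median log2 change was 0.00 for the host genes and 0.01 for all genes. CIP2A, an inhibitor of the phosphatase PP2A, fell to 140, 139, 137 and 140 CPM in LMI070 replicates 13 to 16, against 183, 185, 187 and 208 in DMSO replicates 9 to 12. The log2 change was -0.45 (SE 0.043, edgeR adjusted p = 1.51e-05), and it was called under all 17 alternative settings.

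DIAPH3, a formin that nucleates actin filaments, was lower as well, with 115, 106, 112 and 115 CPM in LMI070 replicates 13 to 16 and 131, 127, 130.3 and 141 in DMSO replicates 9 to 12 (log2 change -0.24, SE 0.0431, edgeR adjusted p = 0.0237). CEP170, a centrosomal protein gene, had 90.1, 88.5, 84.4 and 90.6 CPM in LMI070 and 98.4, 98.8, 107 and 112 in DMSO libraries (log2 change -0.23, SE 0.0441, edgeR adjusted p = 0.0386). The LMI070 and DMSO libraries did not overlap for either gene. The DIAPH3 call was lost in 7 of 17 alternatives, among them without DMSO replicate 9 or 10 or LMI070 replicate 13, 14 or 16, where the change stayed between -0.25 and -0.22. The CEP170 call was lost without any 1 of the 8 libraries, at -0.26 to -0.21. CEP170 has a close pseudogene copy, CEP170P1, and 379 multiply mapped reads beside 753 unique ones crossed its AT-AC intron, so its counts are uncertain; GATD3A and GATD3B, with 65 and 100 unique and 3099 shared reads, are uncertain for the same reason.

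The lower level was not confined to the AT-AC introns, and it was clearest intron by intron in CIP2A. All 20 introns of CIP2A had fewer RPM in LMI070 than in DMSO libraries, with ratios of 0.621 to 0.811 and a median of 0.712. AT-AC intron 10 had 4.94, 4.35, 4.80 and 5.08 RPM in LMI070 replicates 13 to 16 and 6.70, 7.21, 7.73 and 8.91 in DMSO replicates 9 to 12, a ratio of 0.628, and intron 11 right after it had 0.621. The LMI070 and DMSO libraries did not overlap in 19 of the 20. CIP2A, DIAPH3 and CEP170 were picked because the sum of these same introns was called lower. Counts of their introns therefore restate that call and are not separate tests, and the share without overlap over all introns is not given here. In DIAPH3 all 27 introns had lower means, at 0.677 to 0.980, with AT-AC intron 11 at 0.875 and AT-AC intron 23 at 0.810, but these are ratios of means and the libraries of the 2 groups overlapped in 21 of the 27, intron 23 among them. In CEP170 the means of 18 of 19 were lower and AT-AC intron 4 stood at 0.725, with overlap in 15 of the 19, intron 4 among them.

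**Figure D5:**
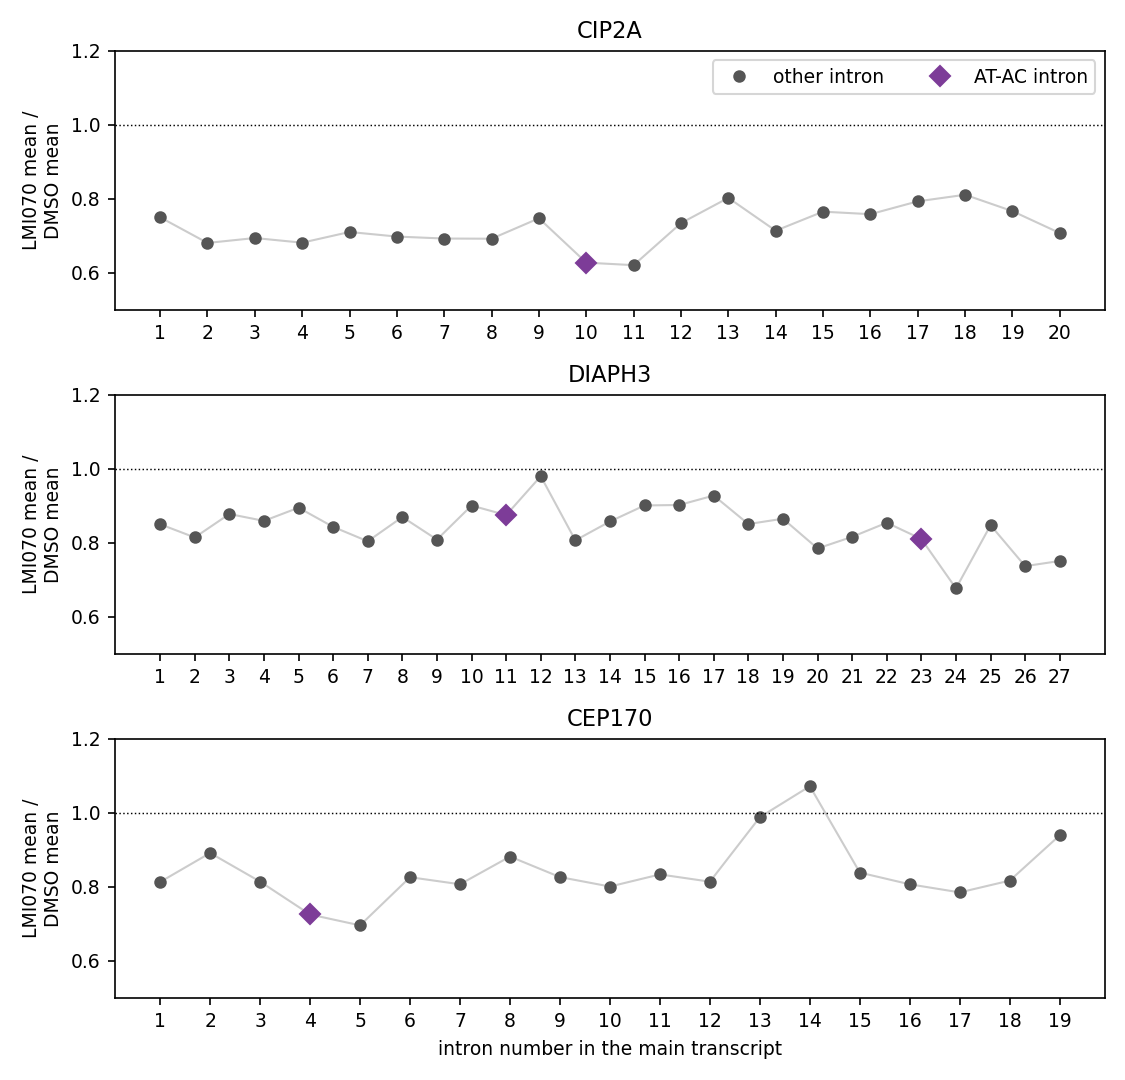
Ratio of mean RPM, LMI070 over DMSO, along the introns of the main transcript of CIP2A, DIAPH3 and CEP170; diamonds are AT-AC introns and the dotted line marks equal levels. CIP2A lies between 0.621 and 0.811 over all 20 introns, with its lowest points at AT-AC intron 10 (0.628) and intron 11 (0.621).

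In the junction tests, the calls within host genes concerned GT-AG junctions of CIP2A, DIAPH3 and TAF2, and those of CIP2A lay nearest to an AT-AC intron. The number of host-gene junctions tested is not given here, so these calls cannot be set against the share over all junctions. In CIP2A, intron 11 (chr3:108565455-108566496), which follows the AT-AC intron after 1 exon, kept 85.5%, 84.2%, 90.9% and 84.3% of reads at its sites in LMI070 replicates 13 to 16 and 96.8%, 95.3%, 97.4% and 94.8% in DMSO replicates 9 to 12 (log2 difference -1.97, SE 0.421, edgeR adjusted p = 0.00276). An unannotated junction from within it (chr3:108565455-108565897) had 6, 7, 5 and 2 reads in LMI070 and 0 in all DMSO libraries (edgeR adjusted p = 0.000765). Its share in LMI070 was 4.65%, which is 9.60-fold the 0.485% that a floor of 3 counts over the DMSO group gives. This ratio leaves out the counting error of the 20 LMI070 reads and the spread between libraries, so it is not a lower bound. Together with a second unannotated junction, with 34 reads in LMI070 and 20 in DMSO libraries, the junction unread in DMSO would bound an exon of 181 nt (chr3:108565898-108566078). The second junction could also bound an exon of 37 nt (chr3:108566042-108566078). The other side of that exon had 9 reads in LMI070 and 5 in DMSO libraries. Which exon the reads of the second junction belong to was not tested. The intron 11 call was lost in 7 of 17 alternatives, among them without DMSO replicate 11 (-1.73) or LMI070 replicate 14 (-1.83) and in each lane alone. The call of the unannotated junction was lost in 3 of 16, among them each lane alone. The reads across AT-AC intron 10 and those inside intron 11 come from the same libraries, and the part of either in the lower level of CIP2A was not tested.

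In DIAPH3, intron 15 (chr13:59971161-59974351), 4 introns after an AT-AC intron, kept 94.1% ± 2.02 of reads in LMI070 and 99.8% ± 0.450 in DMSO libraries (log2 difference -4.22, SE 0.961, edgeR adjusted p = 0.00932). Unannotated junctions on both sides of a 48-nt exon within it had 14 and 9 reads in LMI070 and 0 in DMSO libraries. This call was lost in 10 of 16 alternatives, among them without DMSO replicate 9, 11 or 12 or LMI070 replicate 14 or 16, at -4.05 to -3.89. Only 1 competing read was found in DMSO libraries, in replicate 10; without that library the log2 difference was -5.90, so the size of the change is poorly fixed. TAF2, a TFIID subunit gene, had 3 junctions called far from its AT-AC intron 1, around annotated intron 23, which kept 37.4% ± 1.61 in LMI070 and 59.9% ± 3.15 in DMSO libraries (log2 difference -1.33, edgeR adjusted p = 1.09e-06). The share of the TAF2 AT-AC intron was not called. Counts as small as these carry counting error on top of the spread between libraries.

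None of the 18 protein genes listed for the minor spliceosome was called. Its snRNAs and any protein genes outside the list were not examined. All 18 listed genes were tested, among them RNPC3 and SNRNP48 of the U11/U12 particle. In edgeR 0 were called higher and 0 lower, with 1 each way at an unadjusted p under 0.05, and DESeq2 called 0 of those it tested. Over all genes 0.131% were called, and 10.2% had an unadjusted p under 0.05, close to the 11.1% of these 18. Their median log2 change was 0.01 and that of all genes 0.01. ZRSR2, which reads the acceptor of minor introns, had 27.0, 22.6, 24.4 and 23.7 CPM in LMI070 replicates 13 to 16 and 24.0, 21.1, 19.9 and 19.2 in DMSO replicates 9 to 12 (log2 difference 0.22, SE 0.0797, edgeR adjusted p = 0.357). CRIPT had 19.9 ± 1.10 in LMI070 and 23.0 ± 2.16 in DMSO libraries, without overlap (log2 difference -0.21, SE 0.0740, edgeR adjusted p = 0.353), and ARMC7 3.65 ± 0.362 in LMI070 and 3.003 ± 0.333 in DMSO libraries (log2 difference 0.28, SE 0.142, edgeR adjusted p = 0.504). In lane 7 alone ZRSR2 was called higher (log2 change 0.37, edgeR adjusted p = 0.0418). RNPC3, at 31.6 ± 2.40 in LMI070 and 32.0 ± 0.572 in DMSO libraries, differed by less than its spread (SD, n = 4 each).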

How the data were processed

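The authors deposited 1 splice junction table per library. STAR 2.6.0c and the build GRCh38 are named, per the submitters' processing notes, and the deposited values are raw counts of uniquely and of multiply mapped reads per junction, with codes for end motif and annotation. Alignment parameters, read filters and annotation release are not given in the sources used here. Uniquely mapped counts were used, between 20369466 and 36131054 per library.

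Junctions were matched to introns of GENCODE 29, on either strand, and assigned to genes; an intron of several genes went to the one with most reads in its other introns. With no genome sequence in use, intron letters came from transcripts whose exons cover them. Paired counts (an intron and the other annotated introns of its gene, or an intron and all junctions sharing a site) went into edgeR's quasi-likelihood fit (edgeR 4.0.16, R 4.3.3) with a coefficient per library, junction by lane and junction by treatment. Junctions needed 20 reads in all and 10 reads per library in the other introns or at the sites. Spliced reads per gene were tested with TMM factors, lane and treatment after edgeR's expression filter. Standard errors follow from the F statistic. Benjamini-Hochberg adjustment covered all junctions or genes, called at an adjusted p under 0.05. DESeq2 1.42.0 was an alternative. The fits were tested on simulated data. Intervals and floors cover counting error only.

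Text genes were the 12 most-used introns, called ones, the 6 with the largest competing share, the 6 lowest and 4 highest ratios, the 4 smallest p each way, and 3 minor spliceosome genes; others were named after their values were seen. Members and lists were chosen with earlier results of these data known. CENATAC is listed as CCDC84.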

Additional observations from a re-analysis of the deposited data

Results flagged for a closer look

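Of 78 groups of 4 libraries examined, 4 had 1 library far from the other 3 by Dixon's criterion, about the 1 in 20 that chance gives. The share of the KIAA1328 intron in its gene was 11.4% in LMI070 replicate 16, above 10.2% in each of the other LMI070 libraries. For SMS it was 11.5% in DMSO replicate 11, below 11.7% in the others. For C1orf112 it was 3.14% in DMSO replicate 9, above 2.80% to 2.84% in the others. CIP2A had 208 CPM in DMSO replicate 12, above 183 to 187 in the others.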

How the results depend on the processing

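Counts of called AT-AC introns were 0 under all 17 alternatives each for the share within the host gene and for the use of sites. Host genes called, 3 in the fit as reported, numbered 9 with no filter on low counts, 1 with no lane term, 14 in lane 7 alone, 1 without the libraries DMSO 12 and LMI070 16, and 1 to 2 when each replicate was left out. Minor spliceosome genes called were 1 in lane 7 alone and 0 elsewhere. How many of all genes each of these settings called is not given here. These counts therefore do not show that host genes or minor spliceosome genes moved more than other genes. The AT-AC share difference, LMI070 minus DMSO, was -0.000559 percentage points, -0.00192 in lane 7, 0.000803 in lane 8 and -0.000974 to -0.00012 without 1 replicate. A TAF2 junction (chr8:119745037-119746704) changed by 1.41 (log2) against the junctions that share its sites. Set against all junctions with both ends within 100 nt, it gave -0.39. That window leaves out its main competitor (chr8:119744394-119746704, 783 reads). The only junction sharing a site that the window keeps had 1 read, so -0.39 does not show a reversal. This alternative and the restriction to gene-strand AT-AC introns were chosen after seeing the data. The cause of the other differences between settings was not tested. No paired analysis was possible because the groups share no replicate numbers. Depth limits introns with under 100 reads most.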
